A study of Mus musculus with 30 samples.

Results

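Solute carriers with a listed H3K27ac region were the subject: 86 protein-coding genes of the Slc families, out of 374 such genes once Slc1a3 was left aside. A gene was taken when its RefSeq span on mm10, extended by 2 kb on both sides, overlapped a region of either genotype-specific H3K27ac list. The genes were thus chosen by their H3K27ac regions, and every H3K27ac count below is a description with no test. The lists came from a CUT&Tag study of sorted brain microglia, an assay that tags the DNA beside an antibody's target with a transposase. The study compared Mir137 cKO mice (Mir137loxP/loxP with Tmem119-CreERT2) with cWT mice (Mir137+/+ with Tmem119-CreERT2). Both groups were C57BL/6J mice labelled 8 weeks old, both carried the same inducible Cre, and both received tamoxifen on 7 consecutive days. Mir137 encodes miR-137, and Tmem119, the gene that drives the Cre, is a microglial marker, so deletion was directed at microglia. About 100000 sorted cells were used per genotype. The 30 samples form 10 groups of 3 replicates, 1 group for each of 2 genotypes and 5 antibodies. Whether a replicate stands for a mouse of its own is left unsaid in the labels.

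The antibodies were directed at H3K27ac (a mark of active promoters and enhancers), H3K4me3 (a mark of active promoters), Pu.1 (the transcription factor that sets up the myeloid lineage), the polymerase of protein-coding genes (Pol II) and its form phosphorylated at serine 5 (Ser5P, found early in transcription). Per the labels' protocol, H3K27ac, Pol II and Ser5P share a catalogue number, as do H3K4me3 and Pu.1, so the lists are named here as the labels name them. Each antibody had a cKO-specific and a cWT-specific list, with 22399 regions in 10 lists. The lists hold no value per replicate and no read depth. No level could be given per sample, and no difference between genotypes could be set against the spread between replicates. A region in a list says where the authors placed a genotype-specific region, not how strong it was in either genotype. Of the microglial markers checked, 9 of 10 had a listed region, the exception being Trem2. The same held for 1 of 5 astrocyte, 0 of 5 neuronal, 1 of 5 oligodendrocyte and 2 of 5 endothelial markers. The microglial markers held 28 regions, the astrocyte 2, the oligodendrocyte 9 and the endothelial 6. Over all coding genes, 19.8% had a listed H3K27ac region and 33.0% a region of another antibody. The marker counts take a region of any of the 10 lists. The matching share over all coding genes is higher than either of these and was not computed. The lists hold genotype-specific regions only, so these counts do not measure the purity of the cells.

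Solute carriers are membrane proteins that move amino acids, sugars, nucleotides, metals and ions across the plasma membrane or the membranes of lysosomes, the endoplasmic reticulum and mitochondria. Some are exchangers, some couple uptake to sodium or protons, and some are passive facilitators. In microglia and other macrophages they are known for supplying cystine for glutathione, for emptying lysosomes of digested amino acids and nucleosides, and for handling iron and zinc.

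Promoters of 7 members are printed first, picked with their regions known. The first 5 carry regions of 3 or 4 antibodies, and Slc25a40 and Slc7a11 are shown for a cKO H3K27ac region on the promoter. Windows of Slc25a11 and Slc25a29, also with 3 antibodies, are not printed. The sequences are those of RefSeq on GRCm38.p6, from 250 bases before a listed transcript start to 50 after it, 5′ to 3′ on the gene's strand. Capitals mark matches on either strand to any of 6 short motifs: GGGCGG (the GC box), CACGTG (an E-box), TGANTCA (the AP-1 site), GAGGAA (the core of Pu.1 sites), TGATGNAA (the amino acid response element) and TGACNNNGC (the antioxidant response element). Each motif was searched separately, so matches of different motifs can share bases.
Slc41a1 (chr1:131827762-131828061, plus strand; cKO Pol II, cKO Ser5P, cWT H3K4me3 and cWT H3K27ac): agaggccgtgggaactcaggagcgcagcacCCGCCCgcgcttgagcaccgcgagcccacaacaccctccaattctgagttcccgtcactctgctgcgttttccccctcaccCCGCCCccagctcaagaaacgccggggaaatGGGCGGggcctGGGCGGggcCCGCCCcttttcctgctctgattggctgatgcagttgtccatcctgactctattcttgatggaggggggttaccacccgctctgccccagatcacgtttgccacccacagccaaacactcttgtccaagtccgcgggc
Slc43a2 (chr11:75531444-75531743, plus strand; cKO H3K27ac, cKO Pol II, cKO Ser5P, cWT H3K4me3 and cWT H3K27ac): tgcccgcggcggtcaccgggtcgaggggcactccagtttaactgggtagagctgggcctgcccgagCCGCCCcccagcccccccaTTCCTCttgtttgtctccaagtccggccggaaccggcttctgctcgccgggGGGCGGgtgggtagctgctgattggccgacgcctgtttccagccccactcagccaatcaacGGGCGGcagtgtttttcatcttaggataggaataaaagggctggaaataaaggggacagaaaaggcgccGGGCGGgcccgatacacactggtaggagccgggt
Slc25a33 (chr4:149774218-149774517, minus strand; cKO Pol II, cKO Ser5P and cWT H3K27ac): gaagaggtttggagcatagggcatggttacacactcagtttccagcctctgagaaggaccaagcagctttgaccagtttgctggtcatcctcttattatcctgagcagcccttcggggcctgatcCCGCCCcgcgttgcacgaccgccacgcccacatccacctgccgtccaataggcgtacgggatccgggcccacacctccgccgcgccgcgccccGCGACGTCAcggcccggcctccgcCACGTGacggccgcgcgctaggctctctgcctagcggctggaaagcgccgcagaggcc
Slc7a7 (chr14:54417653-54417952, minus strand; cKO Pol II, cKO Ser5P and cWT H3K27ac): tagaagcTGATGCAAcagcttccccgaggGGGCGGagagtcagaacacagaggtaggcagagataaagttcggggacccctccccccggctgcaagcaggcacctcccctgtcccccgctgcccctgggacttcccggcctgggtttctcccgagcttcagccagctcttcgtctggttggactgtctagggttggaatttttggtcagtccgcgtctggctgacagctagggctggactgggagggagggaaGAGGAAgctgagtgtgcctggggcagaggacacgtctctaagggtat
Slc16a10 (chr10:40142205-40142504, minus strand; cKO Ser5P, cWT H3K27ac and cWT Pol II): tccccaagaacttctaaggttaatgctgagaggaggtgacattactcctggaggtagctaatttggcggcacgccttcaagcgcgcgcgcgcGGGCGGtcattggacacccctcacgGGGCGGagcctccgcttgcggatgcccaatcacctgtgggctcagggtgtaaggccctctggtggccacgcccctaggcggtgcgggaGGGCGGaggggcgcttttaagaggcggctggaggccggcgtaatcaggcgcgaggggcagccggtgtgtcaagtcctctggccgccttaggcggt
Slc25a40 (chr5:8422588-8422887, plus strand; cKO H3K27ac and cKO Ser5P): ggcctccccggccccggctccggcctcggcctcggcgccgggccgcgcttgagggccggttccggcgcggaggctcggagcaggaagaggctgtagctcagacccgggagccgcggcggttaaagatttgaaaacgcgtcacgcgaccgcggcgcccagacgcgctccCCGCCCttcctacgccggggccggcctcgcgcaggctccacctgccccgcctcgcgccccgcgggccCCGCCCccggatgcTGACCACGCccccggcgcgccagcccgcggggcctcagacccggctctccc
Slc7a11 (chr3:50443564-50443863, minus strand; cKO H3K27ac): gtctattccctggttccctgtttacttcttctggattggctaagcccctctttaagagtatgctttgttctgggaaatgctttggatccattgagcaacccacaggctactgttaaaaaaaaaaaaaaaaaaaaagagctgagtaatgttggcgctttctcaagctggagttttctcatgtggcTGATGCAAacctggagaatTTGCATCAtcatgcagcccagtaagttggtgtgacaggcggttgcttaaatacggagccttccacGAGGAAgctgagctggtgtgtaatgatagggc

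The GC box stood in 6 of these 7 windows, all but that of Slc7a11. Over the 98 windows that RefSeq lists for 68 of the members, 65.3% held GGGCGG, against 46.2% of coding-gene windows and 35.6% of all windows in the table. GAGGAA stood in 22.4% of member windows, against 27.4% of coding-gene windows and 28.3% of all windows. CACGTG was in 12.2% (7.83% of coding-gene and 7.15% of all windows), TGACNNNGC in 12.2% (13.0% and 12.4%), TGANTCA in 7.14% (6.99% and 7.81%) and TGATGNAA in 5.10% (3.60% and 3.97%). Slc7a11 held TGATGNAA on both strands, at positions -66 and -47 from the start, and GAGGAA at position 19. Slc7a7 held TGATGNAA at -243 and GAGGAA at 4. A match says only that the letters are there. Windows of the same gene can overlap, as at Slc7a7, and so count the same match again. Motif shares were not computed for the other coding genes with a listed H3K27ac region, and the differences in motif shares were not tested. Of the 98 windows, 34 windows of 29 members were overlapped by a listed region, and 9 windows by regions of at least 3 antibodies. The same counts were not made for windows of other genes. Members were chosen by a listed region within 2 kb, which raises these counts by construction.

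Around the 86 carriers lay 257 listed regions, 170 to 1730 bp wide, and the antibodies leaned to different genotypes. H3K27ac had 27 regions in the cKO list and 111 in the cWT list. The cKO share was 19.6% (95% exact Clopper-Pearson interval 13.3 to 27.2%), against 10.8% over all listed H3K27ac regions. H3K4me3 had 4 cKO and 7 cWT regions, a cKO share of 36.4% (10.9 to 69.2%), against 61.5% over all its regions. Pu.1 had 11 cKO and 0 cWT regions, Pol II had 40 cKO and 3 cWT regions, and Ser5P had 53 cKO and 1 cWT region. Their cKO shares were 100% (71.5 to 100%), 93.0% (80.9 to 98.5%) and 98.1% (90.1 to 99.95%), against 95.9%, 92.2% and 98.0% over all listed regions. The intervals cover the counting of regions only, and the differences between carriers and all regions were not tested.

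**Figure D1:**
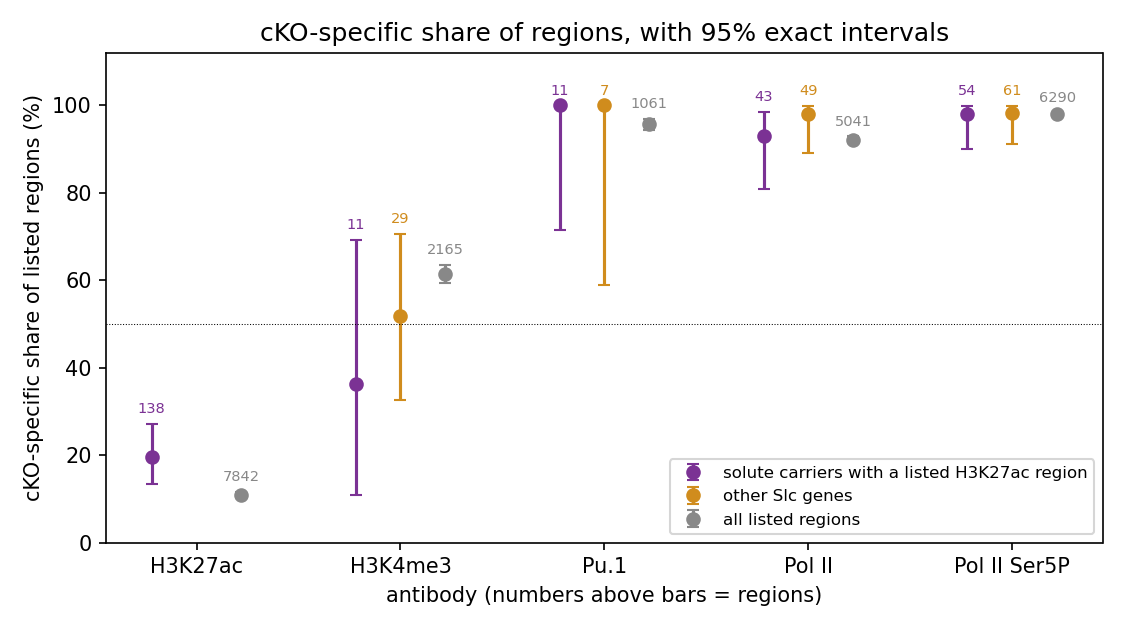
Share of listed regions (%) that were cKO-specific, by antibody, at the 86 solute carriers, at the other Slc genes and over all listed regions; bars are 95% exact intervals and the numbers count regions. At the carriers H3K27ac lies at 19.6% and Pol II and Ser5P above 90%, and the H3K4me3 interval spans 10.9 to 69.2%.

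Counted by gene, 12 members (14.0%) had H3K27ac regions of cKO alone, 62 (72.1%) of cWT alone and 12 (14.0%) of both genotypes. Among the 4245 other coding genes with a listed H3K27ac region these shares were 7.33%, 85.2% and 7.51%. Counted without regard to the other list, 24 members had a cKO H3K27ac region (27.9%, against 14.8% of the other such genes and 2.99% of all coding genes) and 74 had a cWT one (86.0%, against 92.7% and 18.3%). These lists chose the members, so shares above those of all coding genes were fixed in advance by the rule.

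In the lists that did not choose the genes, the carriers mostly resembled other genes with a listed H3K27ac region. Ser5P regions of the cKO list lay at 36 members (41.9%, 95% interval 31.3 to 53.0%), against 42.4% of the other coding genes with H3K27ac regions, 18.4% of the other Slc genes and 21.1% of all coding genes. Pol II regions of the cKO list lay at 31 members (36.0%, 26.0 to 47.1%), against 36.1%, 13.9% and 16.4%. At 47 members (54.7%) the cKO list of Pol II, Ser5P or both had a region, against 54.0%, 22.2% and 26.8%. Pu.1 regions of the cKO list lay at 9 members (10.5%, 4.90 to 18.9%), against 7.70%, 2.43% and 3.24%. H3K4me3 regions of the cKO list lay at 4 members (4.65%, 1.28 to 11.5%), against 12.1%, 4.86% and 6.16%, and of the cWT list at 7 (8.14%, 3.33 to 16.1%), against 8.17%, 4.51% and 3.89%. In the cWT lists, Pol II had a region at 3 members (3.49%, against 3.77%, 0.347% and 1.45%), Ser5P at 1 (1.16%, against 1.01%, 0.347% and 0.521%) and Pu.1 at none (0.212%, 0% and 0.0959%). Gene length differed between these sets: the median span was 34.6 kb for the members, 33.7 kb for the other genes with H3K27ac regions, 27.1 kb for the other Slc genes and 17.2 kb for all coding genes. Longer genes can hold more regions, and the part of length in these shares was not tested.

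**Figure D2:**
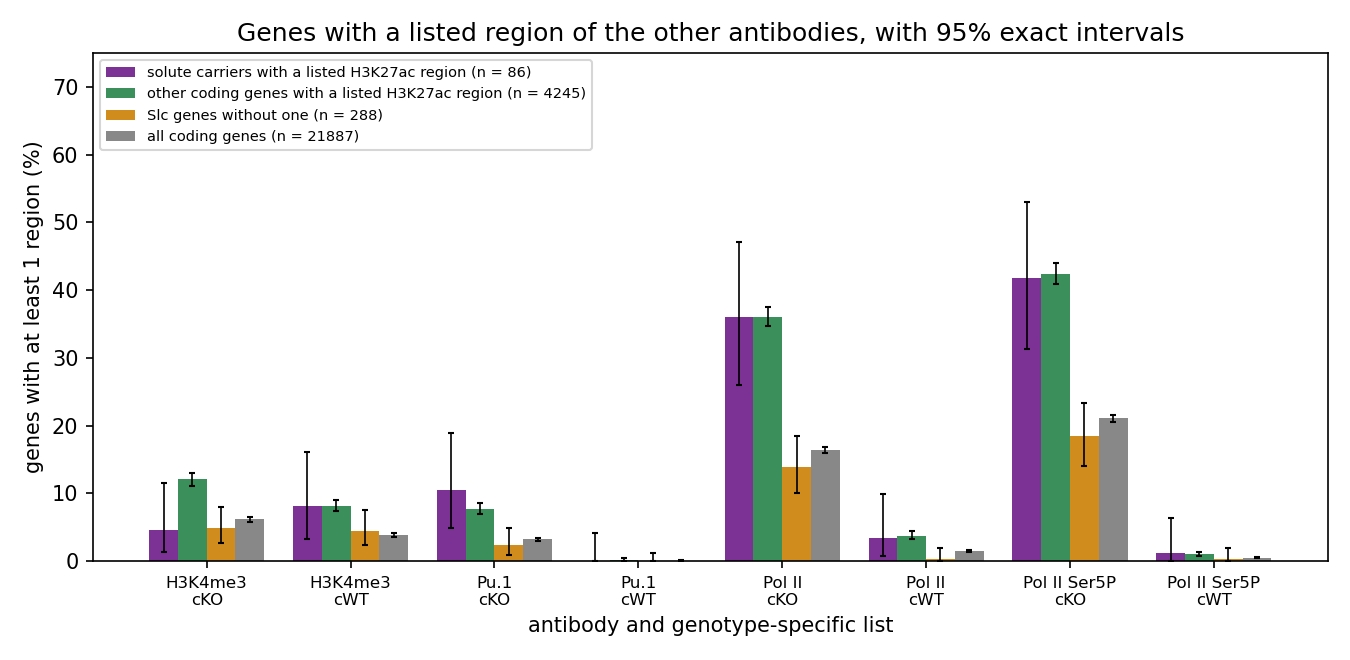
Share of genes (%) with at least 1 region of each other antibody and list within 2 kb of the span, for the 86 carriers and for 3 comparison sets, with 95% exact intervals. For cKO Pol II and cKO Ser5P the carriers (36.0 and 41.9%) stand beside the other genes with H3K27ac regions (36.1 and 42.4%), and above the other Slc genes (13.9 and 18.4%).

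In all, 29 members (33.7%, 95% interval 23.9 to 44.7%) had polymerase regions in cKO lists only and H3K27ac regions in the cWT list only, against 41.8% of the other genes with H3K27ac regions. A cKO polymerase region was present at 8 of the 12 members with cKO-only H3K27ac, at 31 of the 62 with cWT-only H3K27ac and at 8 of the 12 with both. These shares of 66.7%, 50% and 66.7% stand beside 53.1%, 52.8% and 69.0% of the other genes with H3K27ac regions. The number of antibodies varied: 35 members had H3K27ac regions alone, 22 had 2 antibodies, 21 had 3, 7 had 4, and Slc43a2 alone had 5. The shares, 40.7%, 25.6%, 24.4%, 8.14% and 1.16%, were close to those of the other genes with H3K27ac regions, 36.2%, 29.9%, 24.5%, 8.43% and 0.872%. The number of regions ran from 1 (25 members) and 2 (23 members) to at least 5 at 18 members. Across the 86 genes, region number and gene span had a Spearman rho of 0.27, a description of genes that share the same lists.

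**Figure D3:**
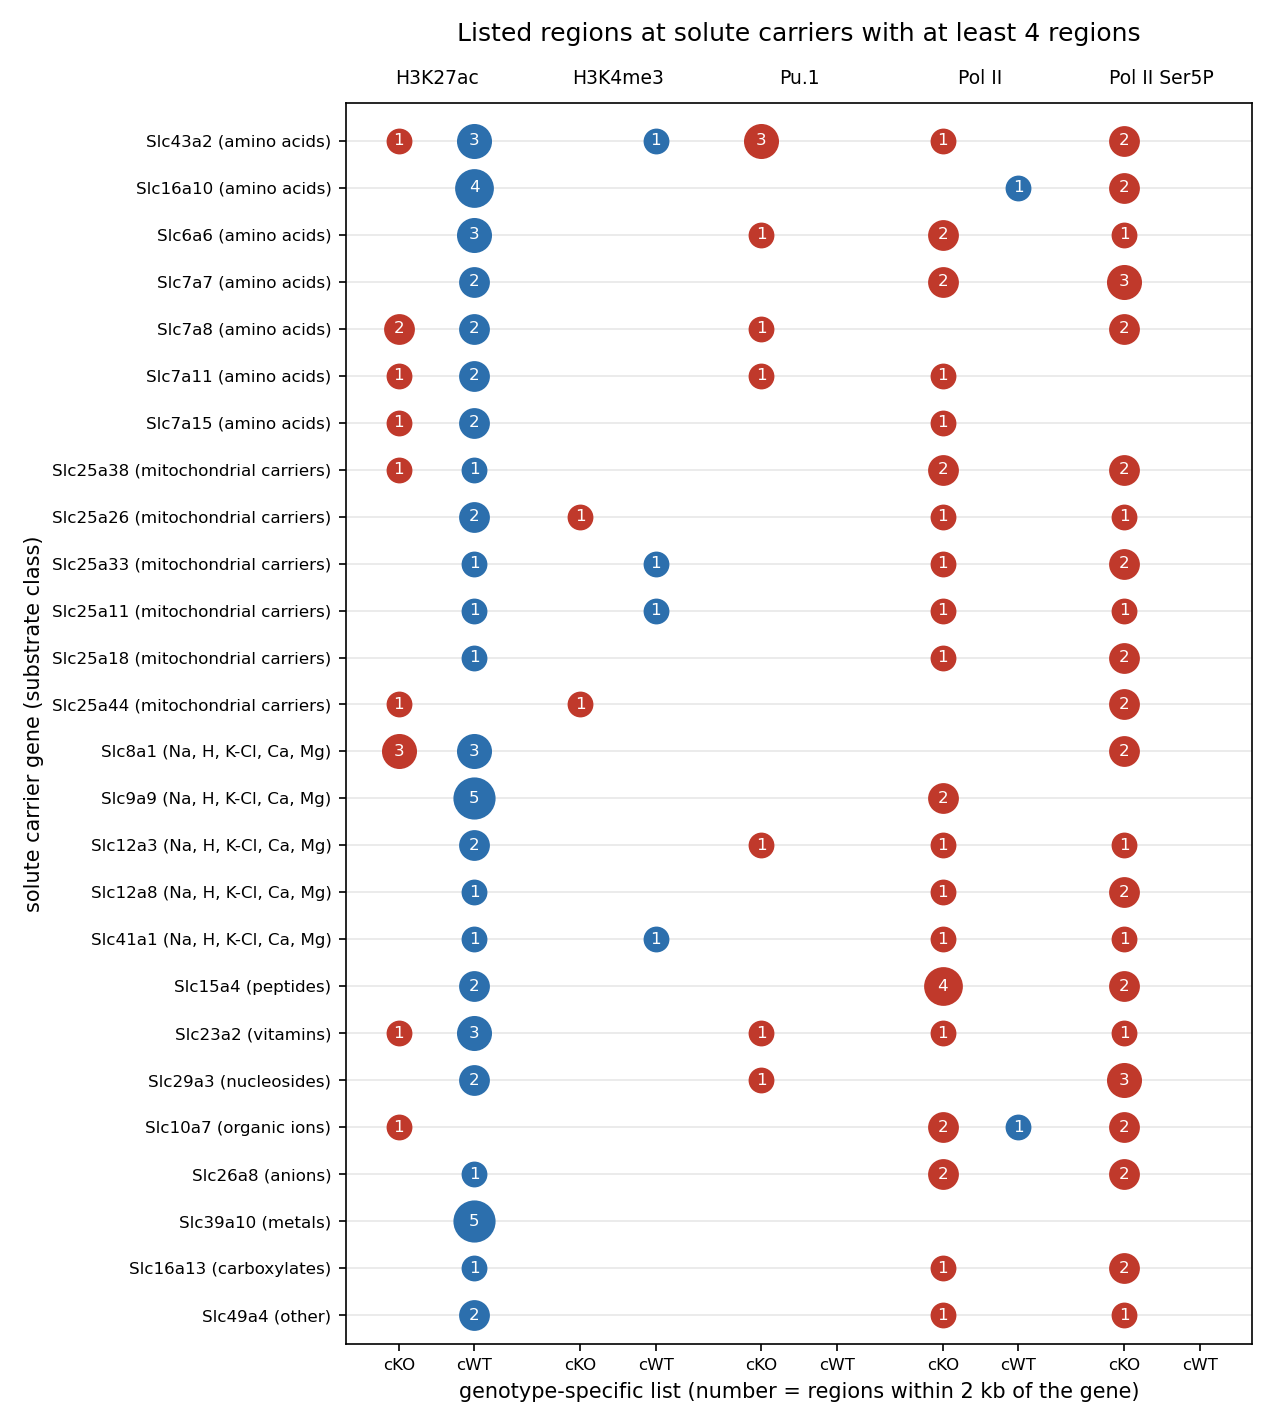
Listed regions at 26 of the 27 solute carriers with at least 4 of them (1 is not reported by name), by antibody and list (cKO red, cWT blue); the number in each circle counts regions within 2 kb of the gene. The red column of cKO Ser5P and the blue column of cWT H3K27ac are the fullest, and Slc43a2 leads with 11 regions.

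Over all classes, 86 of the 374 Slc genes were members. Class counts pool 5 antibodies whose lists differ in size between genotypes. The cKO and cWT counts of a class thus depend on its mix of antibodies, and no class was tested against another. Amino acid carriers held the most regions of any class, 56 at 12 of the 65 genes in the class, with 32 in cKO lists and 24 in cWT lists. By number of genes, 65, the class is also the largest. By members it is smaller than the mitochondrial class and the class of sodium, proton and related ion carriers, with 18 members each. The amino acid members had a median span of 65.1 kb, against 34.6 kb over all 86. The amino acid class held 6 of the 11 Pu.1 regions, at 4 genes, with 3 of the 6 at Slc43a2. All 11 were in the cKO list, like 95.9% of Pu.1 regions overall. Slc43a2, a facilitator for branched-chain and other large neutral amino acids (chromosome 11, 75529915 to 75577575), had 11 regions. At its promoter, cKO regions of H3K27ac (75531187 to 75531728), Ser5P (75531322 to 75531703) and Pol II (75531543 to 75531998) shared ground with cWT regions of H3K4me3 (75531160 to 75532228) and H3K27ac (75531726 to 75531980). The cKO and cWT H3K27ac regions there met at their ends. Further in, a cKO Pu.1 region (75533212 to 75533419) lay within a cWT H3K27ac region (75533211 to 75533509), and another cKO Pu.1 region (75573239 to 75573471) lay within a cKO Ser5P region (75573094 to 75573543). The third cKO Pu.1 region (75571168 to 75571542) overlapped no other. The 3 Pu.1 regions lay 1.20, 39.2 and 41.2 kb from a listed start.

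Slc16a10 (chromosome 10), a carrier of aromatic amino acids, Slc6a6 (chromosome 6), the taurine transporter, Slc7a7 (chromosome 14), the light chain of a cationic amino acid exchanger, and Slc7a8 (chromosome 14), the light chain of a neutral amino acid exchanger, had 7 regions each. At Slc7a7 the cKO regions of Ser5P (54417559 to 54417842) and Pol II (54417608 to 54417879) overlapped a cWT H3K27ac region (54417485 to 54417768) on the promoter printed above, and 3 more cKO polymerase regions lay between 54382470 and 54383671. At Slc16a10, a cKO Ser5P region (40141993 to 40142299) overlapped cWT regions of H3K27ac (40141966 to 40142278) and Pol II (40142061 to 40142400). It was 1 of only 3 members with a cWT Pol II region, and Slc10a7 (chromosome 8) was another. Slc6a6 had a cKO Pol II region (91683682 to 91684381) and a cKO Ser5P region (91684838 to 91685154) at 1 end of the gene, and a cKO Pu.1 region (91712659 to 91712898) and 3 cWT H3K27ac regions further in. Slc7a8 had 2 H3K27ac regions in each list, and a cKO Pu.1 region (54756269 to 54756438) overlapping a cKO Ser5P region (54756357 to 54756731).

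Slc7a11 (chromosome 3), the light chain of the cystine and glutamate exchanger that supplies glutathione synthesis, had its cKO H3K27ac region (50443349 to 50443687) over the listed start. Its 2 cWT H3K27ac regions lay 4.68 and 61.5 kb from that start, and cKO regions of Pu.1 (50406762 to 50407179) and Pol II (50406875 to 50407179) overlapped at a place 36.6 kb from it. Slc7a1 (chromosome 5), an arginine and lysine importer, had a cKO H3K27ac region (148399429 to 148399813) at its start and a cKO Pol II region (148399876 to 148400261) next to it, and no cWT region. Slc7a15 (chromosome 12) had a cKO H3K27ac region (8584916 to 8585201) apart from 2 cWT ones, of which 1 (8547031 to 8547576) was overlapped by a cKO Pol II region (8547199 to 8547555). Slc1a2 (chromosome 2), the main glutamate transporter of astrocytes, had a cWT H3K27ac region (102745514 to 102745810) overlapped by a cKO Ser5P region (102745532 to 102745815). Slc1a2 was also the only astrocyte marker of the 5 checked with a listed region, and the part of other cells in it was not tested. Slc36a2 and the lysosomal exporter of cationic amino acids Slc66a1 had 1 cWT H3K27ac region each. Slc7a6 (chromosome 8) had a cKO Ser5P region (106168955 to 106169363) overlapping a cWT H3K27ac region (106168442 to 106169225) at its start.

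**Figure D4:**
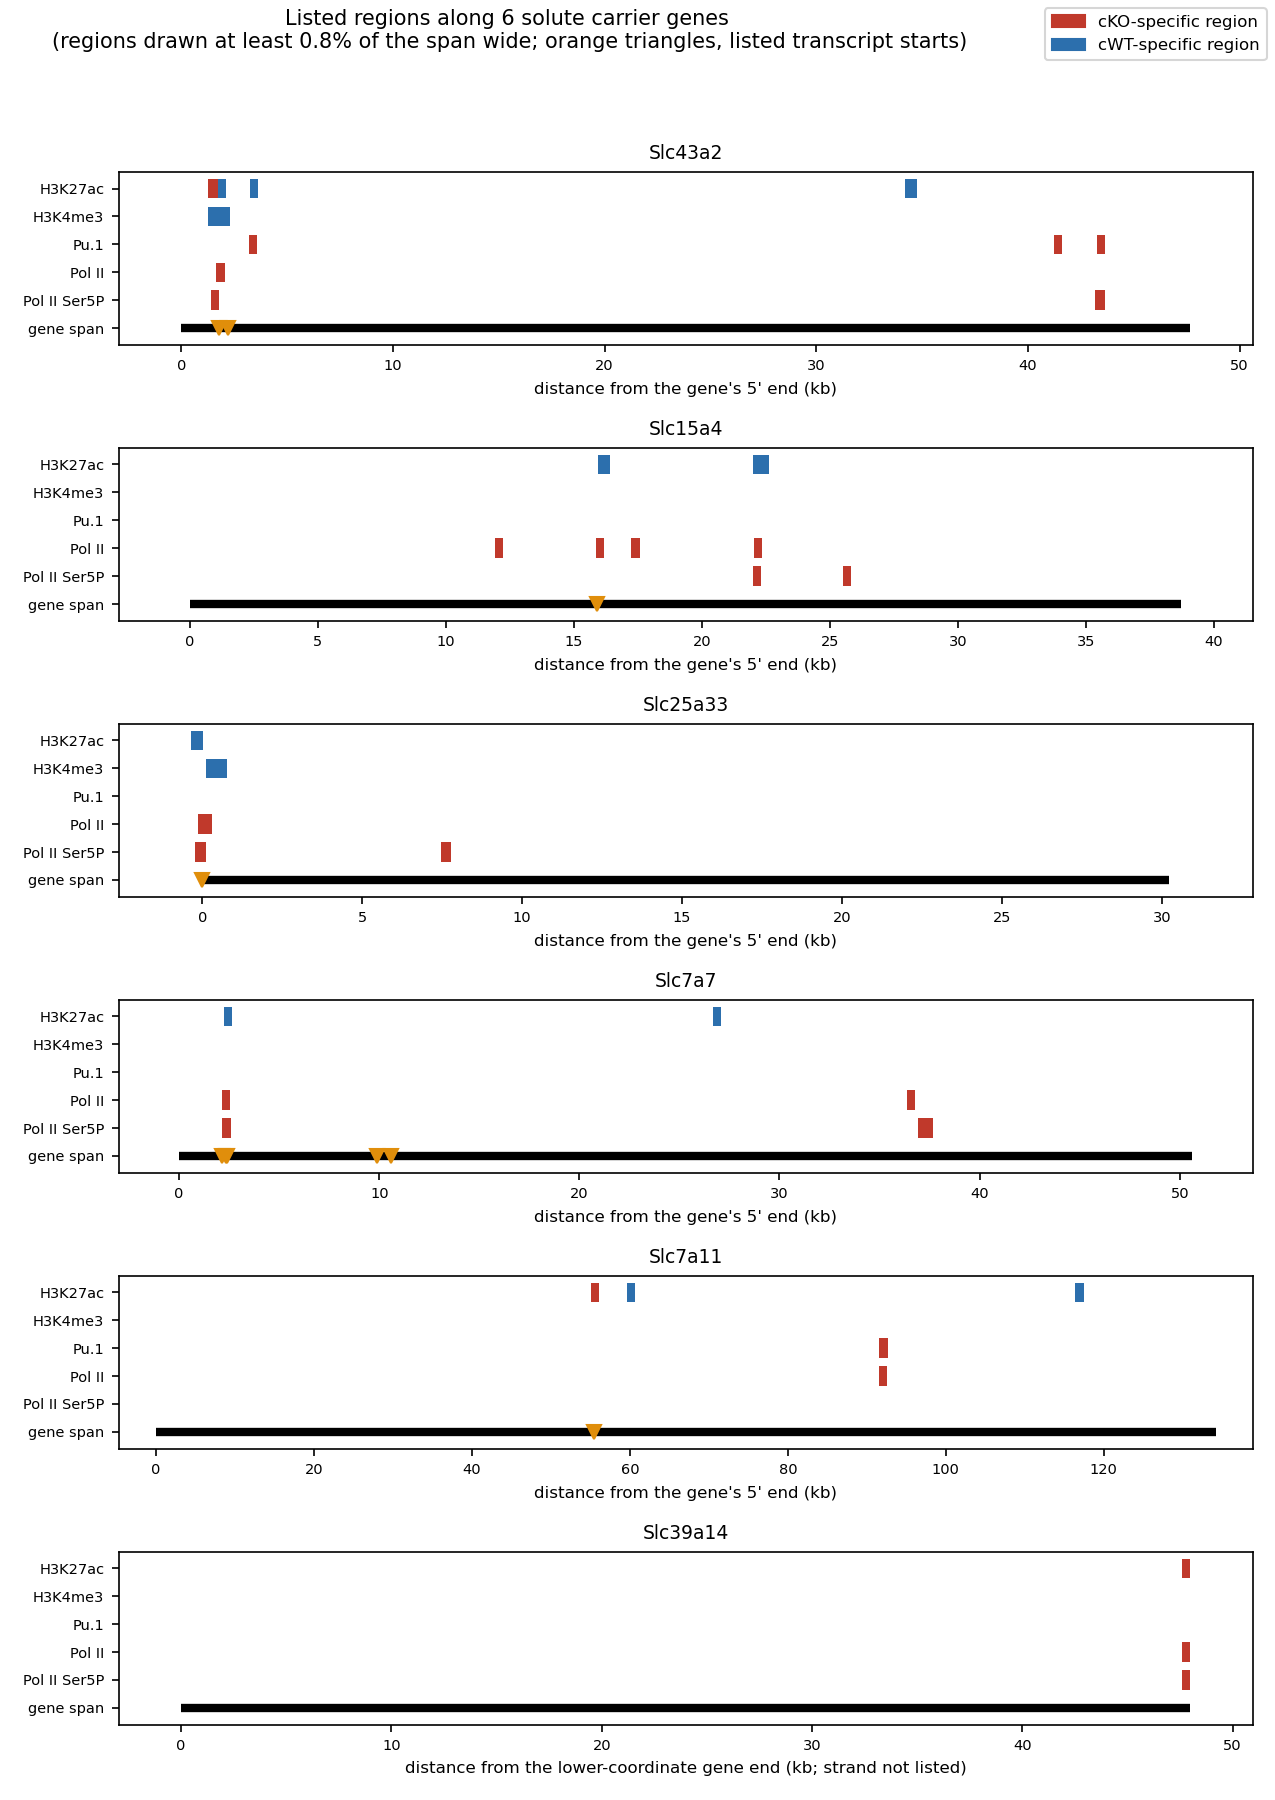
Listed regions along 6 solute carrier genes, placed by distance (kb) from 1 gene end, with cKO regions red, cWT regions blue, the gene span black and listed starts as triangles. Narrow regions are drawn wider than scale, so neighbours can look joined. At Slc43a2, Slc7a7 and Slc25a33 the cKO polymerase regions and cWT H3K27ac regions pile up at a listed start, at Slc15a4 a second pile lies inside the gene, and at Slc39a14 all 3 regions are cKO.

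Of the 35 carriers of sodium, protons, potassium with chloride, calcium and magnesium, 18 were members, against 86 of the 374 Slc genes. These 18 had 25 cKO and 27 cWT regions, and their median span was 52.4 kb, against 34.6 kb over all 86. Slc8a1 (chromosome 17), the sodium and calcium exchanger of the plasma membrane, led with 8 regions and was the member with most cKO H3K27ac regions, 3, beside 3 cWT ones. A cKO region (81580885 to 81581140) and a cWT region (81579924 to 81580927) met there, which together with Slc43a2 makes 2 places where the H3K27ac lists overlapped. A further cKO H3K27ac region (81669290 to 81669499) overlapped cKO Ser5P regions on both sides (81669139 to 81669414 and 81669415 to 81669697). Slc9a9, an endosomal sodium and proton exchanger and the longest member at 560.9 kb, had 5 cWT H3K27ac regions and 2 cKO Pol II regions, none of which overlapped.

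Slc41a1 (chromosome 1), a magnesium transporter, had 4 regions in all, and all lay on its start: cKO Pol II (131827799 to 131828335), cKO Ser5P (131827813 to 131828315), cWT H3K4me3 (131827937 to 131828386) and cWT H3K27ac (131827992 to 131828536). Slc12a3 (chromosome 8), a sodium and chloride cotransporter known from the kidney, had cKO regions of Ser5P (94365496 to 94365849), Pol II (94365514 to 94365861) and Pu.1 (94365561 to 94365826) on top of each other 36.5 kb from its start, and 2 cWT H3K27ac regions elsewhere. Slc12a8 (chromosome 16) had 3 cKO polymerase regions between 33529736 and 33530242 beside a cWT H3K27ac region (33530868 to 33531296).

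Slc12a2 (chromosome 18), the sodium, potassium and chloride cotransporter, had H3K27ac in the cKO list only. At Slc12a2 a cKO H3K27ac region (57878244 to 57878540) lay under a cKO Ser5P region (57878181 to 57878650), with a cKO H3K4me3 region (57878911 to 57879633) next to them. Slc9a7, an exchanger of the trans-Golgi network, had H3K27ac regions in both lists, far apart. Slc9a5 (chromosome 8) had cKO regions of Ser5P and Pol II over a cWT H3K27ac region (105347102 to 105347877), a place it shares with Fhod1. Of the same class, Slc12a4, Slc12a9, Slc24a1, Slc24a4, Slc8a2, Slc9a4 and Slc9a8 had 1 cWT H3K27ac region each, and Slc8b1, the mitochondrial sodium and calcium exchanger, had a cKO Ser5P region and a cWT H3K27ac region.

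Mitochondrial carriers, the Slc25 family, gave 18 members of 47 genes, with 28 cKO and 23 cWT regions, and held 6 of the 11 H3K4me3 regions. The class made up 18 of the 86 members and held 51 of the 257 regions at members. Slc25a38 (chromosome 9), which carries glycine for heme synthesis, had 6 regions. Its cKO regions of Ser5P (120110442 to 120110789) and Pol II (120110445 to 120110838) lay at the start, and their deposited p placed them among the smallest 8.58% and 8.33% of their lists. Inside the gene a cKO H3K27ac region (120116262 to 120116587) stood next to a cWT one (120115656 to 120116196). Slc25a33 (chromosome 4), a pyrimidine nucleotide carrier, had cKO Pol II (149773971 to 149774393) and cKO Ser5P (149774132 to 149774492) regions joining a cWT H3K4me3 region (149773490 to 149774146) and a cWT H3K27ac region (149774255 to 149774614) over its start. Slc25a11 (chromosome 11), the oxoglutarate and malate carrier, had the same 4 kinds of region at its start between 70646755 and 70647951, all of them also within reach of Rnf167. Slc25a29 (chromosome 12), a carrier of basic amino acids, had cKO Pol II, cWT H3K4me3 and cWT H3K27ac regions between 108835911 and 108836377.

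Slc25a44 (chromosome 3), a carrier of branched-chain amino acids, had regions in cKO lists only. Regions of H3K4me3 (88424682 to 88425122), Ser5P (88424701 to 88425044) and H3K27ac (88424766 to 88425133) lay together at 1 end of the gene. Slc25a40 (chromosome 5), which carries glutathione, had a cKO H3K27ac region (8422373 to 8422678) and a cKO Ser5P region (8422408 to 8422713) before its start, both also near Dbf4. Slc25a26 (chromosome 6), the S-adenosylmethionine carrier, had a cKO H3K4me3 region (94500207 to 94500488) inside a cWT H3K27ac region (94500206 to 94500577), the only such pair among the members. Slc25a25 (chromosome 2), an ATP and phosphate carrier, had a cKO Ser5P region (32451225 to 32452459) and a cKO Pu.1 region (32452124 to 32452464) at 1 listed start, also near Naif1, and a cWT H3K27ac region at another. Slc25a13 (chromosome 6), an aspartate and glutamate carrier, had cKO Pol II and Ser5P regions beside a cWT H3K27ac region at its start (6216676 to 6217343), and its relative Slc25a12 had cWT H3K27ac regions alone. Slc25a18, a glutamate carrier, was a member through regions past its end that lie at Atp6v1e1. Slc25a20 (chromosome 9), the acylcarnitine carrier, had 1 region, in the cWT H3K27ac list (108662038 to 108662513), with a deposited p-value of 0.0891 that put it among the 0.629% of that list with the smallest p.

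Carriers of lysosomes and of vitamins followed. Slc15a4 (chromosome 5), a lysosomal carrier of histidine and peptides that endosomal Toll-like receptor signalling needs, had 8 regions, 6 cKO and 2 cWT. Inside the gene, a cKO Pol II region (127610935 to 127611262) and a cKO Ser5P region (127610976 to 127611272) lay within a cWT H3K27ac region (127610647 to 127611299). All 3 were named primary by the authors and were among the 1.96%, 4.71% and 1.70% of their lists with the smallest deposited p. Slc15a4 had 3 more cKO Pol II regions, 1 of which (127617107 to 127617392) overlapped the other cWT H3K27ac region (127616876 to 127617334) near the listed start. Slc29a3 (chromosome 10), a lysosomal nucleoside carrier, had 3 cKO Ser5P regions, of which 2 overlapped its 2 cWT H3K27ac regions and the third (60739914 to 60740597) overlapped a cKO Pu.1 region (60739891 to 60740128). Slc29a1, a nucleoside carrier of the plasma membrane, had 1 cKO Ser5P and 1 cWT H3K27ac region. Slc23a2, an ascorbate carrier, had 7 regions of 4 antibodies, 4 cKO and 3 cWT, and none of them overlapped another. Slc46a1, the proton-coupled folate carrier, had 2 cWT H3K27ac regions around its start.

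Among carriers of metals, 5 of 31 genes were members, with 4 cKO and 11 cWT regions. Slc39a14 (chromosome 14), an importer of zinc, iron and manganese, had cKO regions only: H3K27ac (70351049 to 70351435), Pol II (70351071 to 70351444) and Ser5P (70351135 to 70351403) lay on top of each other at 1 end of the gene. Slc39a10, a zinc importer, stood opposite, with 5 cWT H3K27ac regions and no region of another antibody. Slc11a2 (chromosome 15), the divalent metal importer that takes up iron, had a cKO Ser5P region (100422722 to 100423041) overlapping a cWT H3K4me3 region (100422645 to 100423034), and a cWT H3K27ac region elsewhere. Slc30a4 (chromosome 2), a zinc exporter, had the only cWT Ser5P region of all members (122681733 to 122682028).

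Among sugar carriers, the 6 members of 29 genes had 8 regions, 4 cKO and 4 cWT, all of H3K27ac, as had 35 of the 86 members in all. Slc2a1 (chromosome 4), the glucose transporter GLUT1, had a cKO region (119126978 to 119127431) just beyond a cWT one (119125632 to 119126683), and Slc37a2, a sugar phosphate exchanger, also had 1 of each. Slc2a6 and Slc37a3 had a cKO region alone, and Slc2a5, a fructose transporter known for its expression in microglia, and Slc37a1 a cWT region alone. The Slc37a3 region lay 1.61 kb outside the gene span and also at another coding gene. None of the 6 had a cKO polymerase region, against 54.0% of the other genes of the same rule, and that difference was not tested. Among the nucleotide sugar carriers, 5 of 14 genes were members. Slc35d2 (chromosome 13) had cKO regions of H3K4me3 (64129240 to 64129664) and H3K27ac (64129456 to 64129773) that overlapped, and Slc35a1, the CMP-sialic acid carrier, had a cKO Pol II region over a cWT H3K27ac region at its start. All 3 regions of Slc35a1 also lay at another coding gene. Slc35a5 had 1 cKO Ser5P and 2 cWT H3K27ac regions.

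Of the organic ion and bile acid families, 5 of 35 genes were members. Slc10a7 had 6 regions, 5 of them cKO, with Pol II (78717132 to 78717603) and Ser5P (78717114 to 78717600) nearly coinciding 208.0 kb from the start. Slc22a4 (chromosome 11), a carrier of ergothioneine, had 1 region, in the cKO H3K27ac list (54028845 to 54029138), and Slc10a6 had 1 cKO and 1 cWT H3K27ac region around its start. Slc2a9 (chromosome 5), a urate carrier, had the region with the smallest deposited p-value among the members, 0.0438, in the cWT H3K27ac list (38505052 to 38506008). It was the only member region under 0.05, against 169 in all lists, and its deposited adjusted p-value was 0.534. It lay 1.91 kb outside the gene span. Of the anion carriers, Slc26a8 had 4 cKO polymerase regions and 1 cWT H3K27ac region, all also at Mapk14. Slc26a11 had a cKO Pol II and a cKO H3K27ac region, also at Sgsh. Slc4a4, a sodium and bicarbonate cotransporter, had 1 cKO Pol II and 1 cWT H3K27ac region.

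Of the carboxylate carriers, Slc16a13 (chromosome 11) had cKO Ser5P (70220844 to 70221474) and cKO Pol II (70221184 to 70221474) regions within a cWT H3K27ac region (70220834 to 70221692), and the Ser5P region, with a deposited p-value of 0.0998, was in the 3.15% of its list with the smallest p. Slc16a6 had a cKO Pu.1 and a cWT H3K27ac region, both also at Arsg. Slc27a1 (chromosome 8), a fatty acid carrier, had a cKO Ser5P region (71569947 to 71570418) overlapping a cWT H3K27ac region (71569469 to 71570369) at its start. Slc44a2, of the choline carrier family, had 2 cWT H3K27ac regions, and Slc17a9, which loads ATP into vesicles, had 1. Slc49a4 (chromosome 16) had cKO Ser5P and Pol II regions over a cWT H3K27ac region (35765186 to 35765826). Slc35e1 (chromosome 8) had a cKO H3K27ac region (72487141 to 72487608), a cKO Ser5P region at its start and a cWT H3K27ac region past its end. Of these 3 regions, 2 also lay at another coding gene.

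Joining overlapping regions gave 185 sites, of which 139 had 1 antibody, 30 had 2, 12 had 3 and 4 had 4. The 4 sites with 4 antibodies were those at Slc43a2, Slc41a1, Slc25a33 and Slc25a11, and each held cKO Pol II, cKO Ser5P, cWT H3K4me3 and cWT H3K27ac. Of the 27 cKO H3K27ac regions at members, 3 overlapped a cKO Pol II region (11.1%, 95% interval 2.35 to 29.2%) and 6 a cKO Ser5P region (22.2%, 8.62 to 42.3%), against 13.1% and 15.9% at other genes of the same rule. Of the 111 cWT H3K27ac regions, 16 (14.4%, 95% interval 8.47 to 22.4%) overlapped a cKO Pol II region and 16 a cKO Ser5P region, against 10.9% and 11.6% of the cWT H3K27ac regions at those other genes. Of the 7 cWT H3K4me3 regions, 5 overlapped a cKO Pol II region and 5 a cKO Ser5P region (71.4%, 29.0 to 96.3%), against 21.3% and 22.5% at those other genes. None of the 4 cKO H3K4me3 regions overlapped Pol II and 1 overlapped Ser5P, against 18.2% and 23.1%. Of the 11 cKO Pu.1 regions, 5 overlapped a cKO Ser5P region (45.5%, 16.7 to 76.6%), against 34.1% at those other genes. Of the same 11, 2 overlapped a cKO Pol II region (18.2%, against 19.1%) and 1 a cWT H3K27ac region (9.09%, against 14.7%). These differences were not tested.

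The distance of regions from a transcript start was described by antibody, with no test between them. Distances were not computed for regions at other genes, so whether these values are particular to the carriers is not known. For members with a listed start, 8 of 21 cKO H3K27ac regions (38.1%, 95% interval 18.1 to 61.6%) and 34 of 94 cWT ones (36.2%, 26.5 to 46.7%) came within 2 kb of a start. The counts were 16 of 32 for cKO Pol II (31.9 to 68.1%), 19 of 43 for cKO Ser5P (29.1 to 60.1%), 2 of 9 for cKO Pu.1 (2.81 to 60.01%) and 5 of 5 for cWT H3K4me3 (47.8 to 100%), and these intervals overlap widely. Median distances were 14.0 kb for cKO H3K27ac, 7.63 kb for cWT H3K27ac, 0.208 kb for cWT H3K4me3, 2.98 kb for cKO Pol II, 6.31 kb for cKO Ser5P and 36.5 kb for cKO Pu.1. Listed starts do not always include the 5′ end of the span, which can lengthen a distance. Slc22a29, on the minus strand, has 1 listed start (8218900), while its span ends at 8253375 and its cWT H3K27ac region lies at 8252163 to 8252548. All 4 cKO H3K4me3 regions were at members without a listed start, and each came within 2 kb of a gene end.

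**Figure D5:**
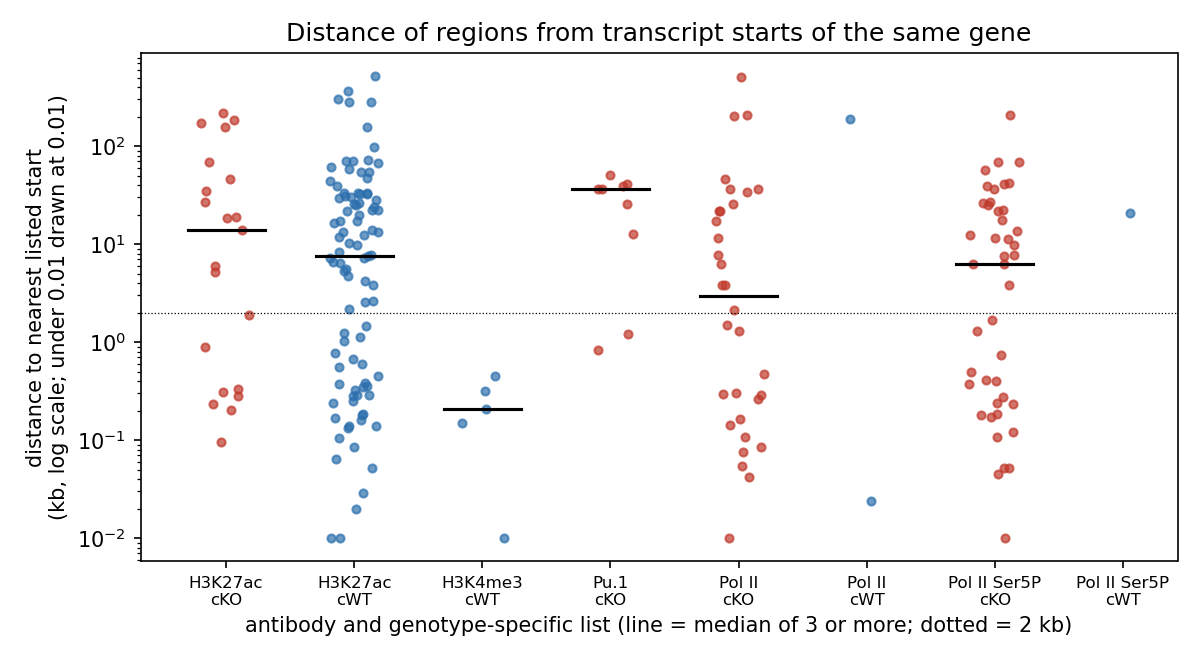
Distance (kb, log axis) from the middle of each region to the nearest listed transcript start of its gene, for the 68 members with a listed start; points are regions, lines medians, the dotted line 2 kb. The cWT H3K4me3 points all lie within 2 kb, and 7 of the 9 cKO Pu.1 points lie beyond it.

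The deposited p-values of the member regions resembled those of the lists they came from. Their median was 0.793, against 0.791 over all regions, 25 (9.73%) were in the tenth of their list with the smallest p, and 0 had an adjusted value under 0.05. The sources used here do not say what these values test. At the edge of the rule, Slc25a16 (1.82 kb from its H3K27ac region) and Slc2a9 (1.91 kb) were the last genes inside, and Slc13a3 (2.95 kb) and Slc36a3 (3.31 kb) the first outside. For 22 members at least 1 region, and for 12 members every region, also lay at another coding gene, 43 regions in all, so a region there cannot be assigned to the carrier alone. The other gene is named above for some of these members only. Slc4a1ap, whose symbol meets the rule, encodes an adaptor protein and not a carrier, and its only region, of cWT H3K27ac, also lay at Supt7l.

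Other transport gene families give a further comparison. Of the 374 solute carriers, 86 had a listed H3K27ac region, and of these 24 had a cKO H3K27ac region (27.9%) and 47 a cKO polymerase region (54.7%). Of 64 ABC transporter and Slco genes, 16 had a listed H3K27ac region, and of these 1 had a cKO region and 10 a cKO polymerase region (62.5%). Of 69 Rab genes, which direct vesicle traffic, 23 had a listed H3K27ac region. Of these 2 had a cKO H3K27ac region (8.70%, 1.07 to 28.0%) and 13 a cKO polymerase region (56.5%). Among the other coding genes with a listed H3K27ac region, 14.8% had a cKO one. These intervals are wide, and the differences between families were not tested. The share of all coding genes with a listed H3K27ac region was 19.8%.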

How the data were processed

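Microglial CUT&Tag of 30 samples, 3 replicates for each genotype and antibody, was grouped from the sample titles, and the series text calls the assay ChIP-seq. Per the submitters' processing notes, HOMER 4.11, bedtools 2.30.0, MACS2 2.2.7.1 and Bowtie2 2.4.4 were used, with GRCm38 and mm10. The role of each, the pooling of replicates and the rule that made a region genotype-specific were not given in the sources used here. For each region, the deposited lists hold a p-value with its adjusted value, a signal and a score. The deposited score and signal are on unstated scales and were not compared. The deposited p-value served only to rank regions within a list.

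Gene spans came from the RefSeq table of GRCm38.p6 (21887 protein-coding genes), and starts, strands and sequences from the RefSeq promoter table, which covers 68 members; the other 18 were placed by gene ends. Coordinates count from 1. Regions within 2 kb of a span were counted, overlaps needed 1 bp, and distances run from a region's middle. Substrate classes followed the Slc family number, with exceptions by gene. The members, lists and classes were chosen with earlier results of these data known. No test was made, because the lists hold no value per replicate. Shares carry 95% exact Clopper-Pearson intervals that cover counting only, and depth is unknown. The counting functions were tested on simulated data.

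The rule for named genes took the 20 members with the most regions (27 with ties), those with a cKO H3K27ac region, at least 4 antibodies or a p-value under 0.05, the 2 with the most regions per class, and those at the edge of the window. It takes 53 members, of which some are counted but not reported here by name. Members named beyond it were picked with their values known. Alternatives changed the window, left out regions under 300 bp, kept the part of each list with the smaller p, assigned regions to the nearest gene only, merged regions within 1 kb, or asked for 50% overlap. Another, added after the data were seen, left out regions also at another gene. The software was scipy 1.17.1, pandas 2.3.3, numpy 2.4.6 and matplotlib 3.10.9 under Python 3.11.15.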

Additional observations from a re-analysis of the deposited data

How the results depend on the processing

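The 21 shares and counts were recomputed under 8 alternatives, giving 133 values, and 11 of them, all shares, moved outside the 95% exact interval of the reported share. The number of members, 86, has no interval: it was 74 with gene spans alone, 96 with a 5 kb window, 78 with the nearest gene only, 79 with regions of at least 300 bp and 60 with the smaller p. Gene spans alone, a 5 kb window, the nearest gene only, merging regions within 1 kb and an overlap of 50% moved no share outside its interval. Keeping the part of each list with the smaller p left 60 members. There the share with H3K27ac in both lists was 5%, with cKO Pu.1 1.67%, with cKO Pol II 25% and with cKO Ser5P 23.3%, no member had a cWT Ser5P region (0%), the cKO share of Ser5P regions was 100% (17 of 17), and 7.69% of cWT H3K27ac regions overlapped cKO Ser5P. This setting keeps fewer regions by construction. With regions of at least 300 bp (79 members) the cKO share of Ser5P regions was 100% (35 of 35), 0% of members had a cWT Ser5P region and 0% of cWT H3K27ac regions overlapped cKO Pu.1. These rest on 1 region each. Without regions also at another gene, an alternative added after the data were seen, 60.5% of members (52 of 86) had H3K27ac in the cWT list only. Members left with no H3K27ac region stayed in that denominator, which lowers the share by construction. No paired analysis was possible because the lists hold no value per replicate, and for the same reason no replicate could be left out. Read depth is unknown, so what it limits cannot be given.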

Other observations

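Among the 288 Slc genes without a listed H3K27ac region, 81 had a region of another antibody (28.1%, against 33.0% of all coding genes). Slc11a1, the phagosomal divalent metal exporter of macrophages, had the most, 5: 1 region each in the cKO lists of Pu.1, Pol II and Ser5P, and 2 in the cWT H3K4me3 list. Slc10a3, Slc15a2 and Slc25a45 had 4 each.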
